A study of Rattus norvegicus with 42 samples.

Results

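The cell cycle and proliferation genes described here are 37 genes that cells transcribe when they copy their DNA and divide. They were picked by symbol, with no measured value in the rule. Of the 37 symbols, 36 were found among the 32623 genes of the count table (Ccnb2 was not matched and is not analysed here). All 36 passed the filter on low counts that kept 18094 genes. The smallest count of any member in any library was 27, and the median over the members of their median count was 926, so each member was measured above the counting floor in every library.

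Retinas of adult rats (Rattus norvegicus; strain and sex: not given in the sources used here) were sequenced as polyA RNA in 6 groups, to ask how nanoceria, cerium oxide particles that take up reactive oxygen species, act on the retina with and without damaging light. The control group was untreated and the light damage group was exposed to 15000 lux for 24 h. The vehicle and nanoceria groups had an injection of vehicle or of 1 mM nanoceria into the vitreous, and the vehicle + light damage and nanoceria + light damage groups had the injection and that light. There were 5 control, 7 light damage, 5 vehicle, 5 vehicle + light damage, 4 nanoceria and 5 nanoceria + light damage libraries. The remaining 11 of the 42 labelled samples were not analysed here. The time from the light to the dissection was not stated in these sources.

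A cell that leaves rest makes D-type cyclins, then E-type cyclins, and loads the MCM helicase on its DNA. E2F factors switch on the genes of replication, and a later wave of kinases, cyclins and spindle proteins carries the cell through mitosis. Neurons of the adult mammalian retina do not divide. Mueller glia, the radial glia of the retina, are mostly at rest in adult rodents and can turn on cell cycle genes after injury, while microglia, infiltrating monocytes, T cells and endothelial cells are able to divide in the tissue.

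The 6 promoters below are shown because their genes carry the results. They are the markers of dividing cells Mki67, Top2a and Cdk1, which moved together across libraries, and Kif11, Prc1 and Tyms, which were called in all 3 comparisons of light with no light. Mcm4 was also called in all 3 and is not shown. Its calls, unlike those of Kif11, Prc1 and Tyms, were lost when some libraries were left out. Each is the 150 bases before the RefSeq start of the gene in the GRCr8 build, read 5′ to 3′ on the strand of the gene. The counts were made on the rn6 build, so these positions are for GRCr8 alone. Capitals mark TTTGAA (the core of the cell cycle homology region), CCAAT (the box bound by NF-Y) and TTCCCGC or TTGGCGC (forms of the E2F site), on either strand, and neighbouring matches can share bases.
Mki67 (chr1:199952594-199952743, minus strand): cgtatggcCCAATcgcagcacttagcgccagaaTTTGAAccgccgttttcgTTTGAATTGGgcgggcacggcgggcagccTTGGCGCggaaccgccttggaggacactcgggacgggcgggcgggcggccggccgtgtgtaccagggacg
Top2a (chr10:84473094-84473243, minus strand): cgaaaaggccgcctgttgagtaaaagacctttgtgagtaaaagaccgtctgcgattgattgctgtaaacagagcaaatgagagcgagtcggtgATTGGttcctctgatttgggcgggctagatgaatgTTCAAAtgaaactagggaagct
Cdk1 (chr20:19265143-19265292, plus strand): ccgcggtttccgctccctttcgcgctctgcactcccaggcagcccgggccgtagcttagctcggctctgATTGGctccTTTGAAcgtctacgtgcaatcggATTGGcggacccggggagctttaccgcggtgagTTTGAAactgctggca
Kif11 (chr1:244536717-244536866, plus strand): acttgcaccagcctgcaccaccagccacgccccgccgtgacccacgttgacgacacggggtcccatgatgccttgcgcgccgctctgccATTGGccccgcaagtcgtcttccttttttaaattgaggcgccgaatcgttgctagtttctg
Prc1 (chr1:143659331-143659480, plus strand): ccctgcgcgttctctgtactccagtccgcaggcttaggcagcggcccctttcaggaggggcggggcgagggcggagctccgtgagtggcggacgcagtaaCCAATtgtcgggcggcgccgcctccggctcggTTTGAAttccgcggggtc
Tyms (chr9:120776084-120776233, minus strand): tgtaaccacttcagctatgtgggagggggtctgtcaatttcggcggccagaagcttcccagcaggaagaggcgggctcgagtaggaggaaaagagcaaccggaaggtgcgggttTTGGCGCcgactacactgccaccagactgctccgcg
The 3 markers of dividing cells held TTTGAA and CCAAT in these windows, as did Prc1. Kif11 held 1 CCAAT box, at -61 to -57 on the opposite strand, and Tyms 1 TTGGCGC at -36 to -30. Promoter entries of 300 bases (250 before and 50 after the start) were found for 25 of the 36 measured members. Among these, TTTGAA was present in 12, against 18.3% of all 33469 entries, and 11 of the 12 were among the 16 members with mitotic roles. CCAAT was present in 18, against 37.5% of all entries. A form of the E2F site was present in 9, against 6.26%, and 6 of them were among the 9 members with roles in G1 and S phase. A match is a description of letters and not a bound site.

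Values are library-scaled counts (CPM), adjusted between libraries by the TMM factors of edgeR, and can be compared between libraries for 1 gene, but not between genes, since gene lengths were not used. Changes are log2 fold changes ± SE from edgeR, and the threshold for a call was 0.05 on the p adjusted over all 18094 genes. Total counts were 25158407 to 182162368 per library with a median of 106887932. Vehicle 4 and 7, and light damage 4 and 7, were close to identical, with a chi-square per degree of freedom over genes of 4.397 and 10.50, against 70.53 for the next closest pair. They differed by more than sampling noise and were kept apart, and they are 1 sample per pair in an alternative. In that alternative Mcm4, Bub1b and Nusap1 were not called for light damage against control, and the other calls of members were kept. The cone markers (Opn1sw, Opn1mw, Gnat2 and Arr3, summed) were 92.9 to 152 CPM in the libraries without light and 30.7 to 103 with light (1, 4 and 1 of the 4 genes called lower with light without injection, after vehicle and after nanoceria), and the Mueller glia markers 3259.8 to 6645 over all libraries, so defining genes of the labelled tissue were present throughout. In bulk tissue, fewer cells of a type and less RNA per cell cannot be told apart. In every group but light damage, 1 or 2 libraries stood at the edge for most of the 36 members. Control 6 was the highest of its group for 33, vehicle 1 for 26, nanoceria 3 for 26 and vehicle + light damage 4 for 24. Control 1 was the lowest for 31, vehicle 2 for 26, nanoceria 2 for 26 and nanoceria + light damage 2 for 31, where these 8 libraries held those places for 21% to 32.3% of all genes. The sexes were uneven: a Y-linked transcript was high in 4 control and 4 light damage libraries, in 1 vehicle and 2 vehicle + light damage libraries, and in 2 nanoceria and 3 nanoceria + light damage libraries.

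With light, a few members passed the test in opposite directions, and no rise of the markers of dividing cells passed it. Kif11, the motor that pushes spindle poles apart, rose 4.91-fold without injection, 5.79-fold after vehicle and 5.74-fold after nanoceria. Prc1, which bundles microtubules in the dividing cell's midzone, and Tyms, which makes thymidylate for DNA, fell in all 3 comparisons, and Mcm4, a helicase subunit, rose in all 3. Mki67, Top2a and Cdk1 were called in none of the 3. For light damage against control, 2 members rose and 7 fell, and 27 did not pass, where 22.5% of all genes were called (11.9% higher and 10.6% lower). For vehicle + light damage against vehicle, 3 rose and 3 fell (16.8% of all genes called, 9.67% higher and 7.17% lower), and for nanoceria + light damage against nanoceria 3 rose and 2 fell (13.9%, with 8.15% higher and 5.78% lower). Averaged over the 3 injection states, 3 rose and 4 fell (37.1%, with 20.5% higher and 16.6% lower). Counted in either direction, the called members were therefore near or below the background of each comparison. By direction, light damage against control had 19.4% of members lower, against 10.6% of all genes, and 5.56% higher, against 11.9%. After vehicle 8.33% of members were higher and 8.33% lower, and after nanoceria 8.33% and 5.56%. Averaged over the 3 states, 8.33% were higher and 11.1% lower. The median log2 fold change of the 36 was -0.54 for light damage against control, 0.15 for vehicle + light damage against vehicle and 0.03 for nanoceria + light damage against nanoceria, against -0.01, 0.02 and 0.04 over all genes. With DESeq2 size factors the last of the 3 was -0.01.

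**Figure D1:**
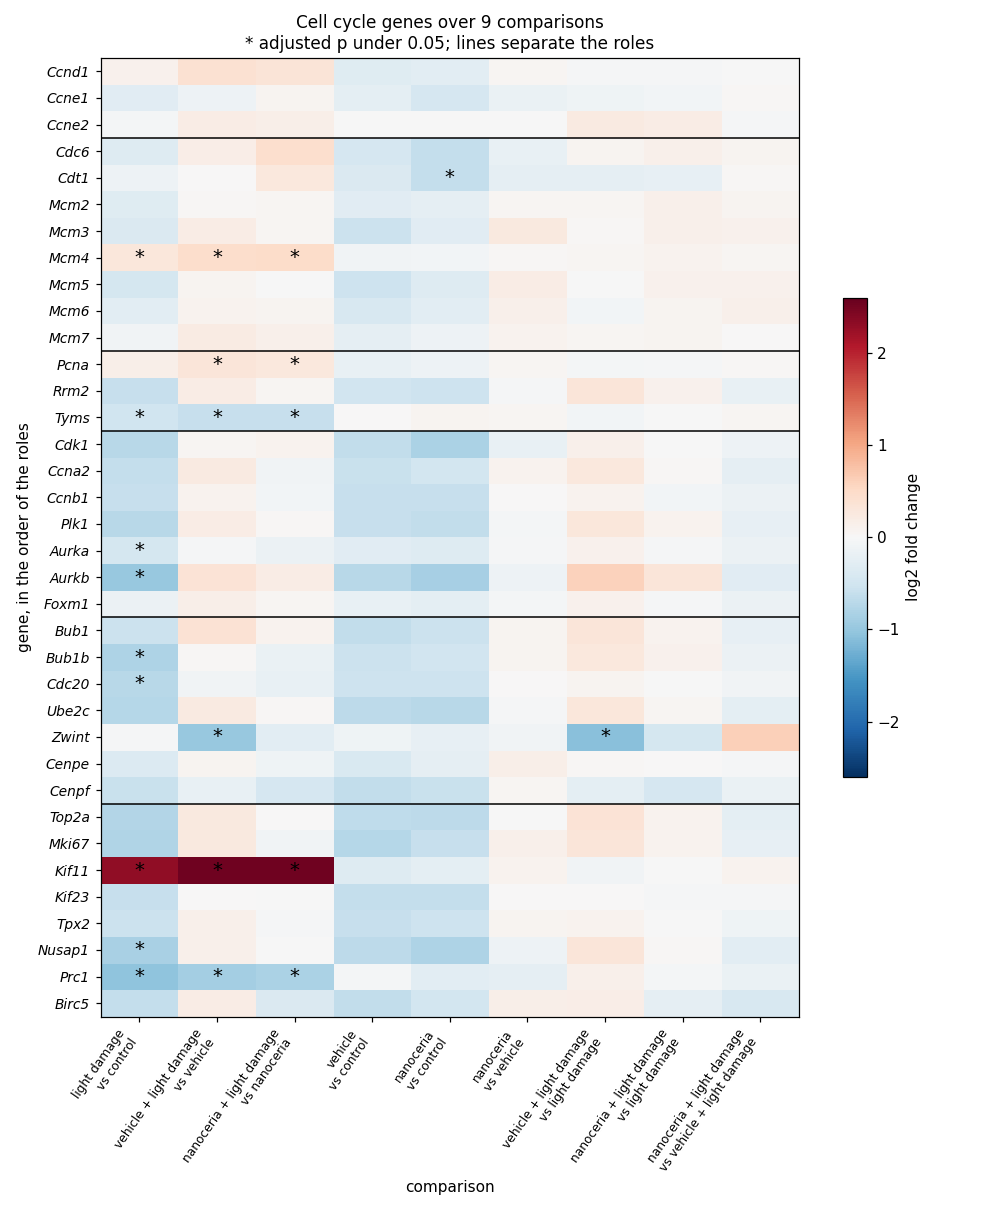
Log2 fold change (colour) of the 36 measured members (rows, grouped by role) in 9 pairwise comparisons (columns), with a star at an adjusted p under 0.05 in edgeR. The Kif11 row is the darkest, at 2.30, 2.53 and 2.52 in the 3 light columns, and the columns of nanoceria against vehicle and of nanoceria + light damage against vehicle + light damage hold no star.

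The 3 members of G1 entry were called in no comparison of the 12 tested. Ccnd1, cyclin D1, is induced by growth factors and is also made by resting Mueller glia. Ccnd1 read 92.9, 146, 180.4, 185 and 319 CPM in control, 118, 118, 121, 169 and 216 in vehicle and 138, 139.7, 149 and 188 in nanoceria. The light damage libraries had a lowest, median and highest Ccnd1 of 126, 219.8 and 259.7 CPM, those of vehicle + light damage read 144, 162, 187, 206 and 278, and those of nanoceria + light damage 78.4, 137, 169, 289.7 and 296. Its groups overlapped throughout, and its changes with light were 0.10 ± 0.28, 0.40 ± 0.30 and 0.34 ± 0.32 without injection, after vehicle and after nanoceria (edgeR adjusted p = 0.848, 0.428 and 0.567). The E-type cyclins, which drive entry into S phase, had a narrower range. Ccne1 lay between 2.31 and 4.40 CPM and Ccne2 between 6.96 and 11.5 in the 31 libraries. Ccne1 was 3.26 to 4.40 CPM in control and 2.79 to 3.03 in nanoceria, so those groups did not overlap (as in 3.02% of all genes in this direction), but its edgeR test there did not pass.

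Of the 8 members of origin licensing and of the replicative helicase, Mcm4 rose with light and the other 7 were not called in any light comparison. Mcm4 read 29.6, 35.4, 35.4, 39.5 and 51.2 CPM in control, 33.3, 33.8, 34.1, 37.2 and 40.8 in vehicle and 34.4, 34.8, 36.8 and 39.7 in nanoceria. In vehicle + light damage Mcm4 was 43.3, 44.4, 49.004, 51.1 and 56.9 CPM, in nanoceria + light damage 43.1, 45.6, 47.9, 56.4 and 59.4, and in light damage 42.8, 47.3 and 50.7 (lowest, median and highest). In the injected groups every light library lay above every library without light, as in 7.65% of all genes after vehicle and 7.11% after nanoceria. In the uninjected groups control 6, at 51.2 CPM, lay above all 7 light damage libraries. Mcm4 rose by 0.30 ± 0.10 without injection, by 0.45 ± 0.11 after vehicle and by 0.47 ± 0.11 after nanoceria (edgeR adjusted p = 0.0296, 0.00366 and 0.00548). The call without injection was lost in 14 of 29 alternatives, with an adjusted p of 0.0502 to 0.144 there, among them without control 1, 2 or 4 or light damage 3, 4 or 7. The call after vehicle was lost without the libraries numbered 2 (edgeR adjusted p = 0.0535) and that after nanoceria without those numbered 5 (0.071), while the averaged change of 0.41 ± 0.06 was kept in all 47 alternatives. The other subunits of the ring did not follow: Mcm2, Mcm3, Mcm5, Mcm6 and Mcm7 changed with light by -0.46 to -0.08 without injection, by 0.02 to 0.21 after vehicle and by -0.01 to 0.12 after nanoceria. Cdc6, which loads the ring with Cdt1, had the widest relative spread of the role, from 0.964 to 7.49 CPM over all libraries.

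Cdt1 was the 1 member called between nanoceria and control, where 2.46% of all genes were called (0.73% lower). Cdt1 read 12.3, 13.4, 13.6, 14.3 and 14.7 CPM in control, 7.85, 10.1, 10.5, 10.9 and 13.2 in vehicle and 8.26, 8.63, 9.27 and 9.45 in nanoceria. Light-exposed retinas had 8.10, 9.21, 11.4, 11.4 and 12.8 CPM of Cdt1 after vehicle, 9.41, 10.4, 10.7, 11.4 and 11.9 after nanoceria, and a lowest, median and highest of 10.99, 12.6 and 13.7 without injection. Each nanoceria library lay below each control library, as in 3.02% of all genes, while the vehicle libraries spanned both. The change was -0.62 ± 0.12 for nanoceria against control (edgeR adjusted p = 0.00548), -0.38 ± 0.11 for vehicle against control (0.341) and -0.24 ± 0.12 for nanoceria against vehicle (0.929). The call was lost in 1 alternative, without the libraries numbered 1 (edgeR adjusted p = 0.0516). Light did not change Cdt1 past the test in any of the 3 states.

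Among the 3 members of DNA and nucleotide synthesis, Tyms fell, Pcna rose in part and Rrm2 was not called. Tyms read 17.7, 22.5, 23.7, 23.9 and 24.2 CPM in control, 19.01, 21.4, 22.3, 24.6 and 25.7 in vehicle and 21.4, 22.9, 23.4 and 26.3 in nanoceria. With light it read 13.6, 14.3, 15.1, 15.4 and 16.1 CPM in vehicle + light damage and 13.98, 14.2, 14.5, 17.3 and 17.4 in nanoceria + light damage, and in light damage its lowest, median and highest values were 14.4, 15.2 and 17.7. In the injected groups no light library reached the lowest library without light, as in 6.01% of all genes after vehicle and 5.54% after nanoceria. In the uninjected groups control 4 (17.7 CPM) was level with light damage 2, the highest light library. Tyms fell by 0.53 ± 0.08, 0.60 ± 0.09 and 0.60 ± 0.10 on the log2 scale without injection, after vehicle and after nanoceria (edgeR adjusted p = 3.84e-05, 3.03e-05 and 7.21e-05), and these calls were kept in every alternative run. Pcna, the sliding clamp that holds polymerases on DNA and also serves in DNA repair, went the other way. Pcna read 48.6, 54.6, 57.2, 58.96 and 61.4 CPM in control, 43.9, 45.2, 45.4, 53.9 and 56.4 in vehicle and 47.7, 51.7, 52.2 and 52.6 in nanoceria. The light damage libraries had a lowest, median and highest Pcna of 57.1, 62.7 and 67.1 CPM, those of vehicle + light damage read 51.8, 54.1, 60.1, 64.7 and 71.97, and those of nanoceria + light damage 55.9, 59.4, 62.7, 63.8 and 66.3. Its ranges overlapped in the uninjected and vehicle groups and did not after nanoceria, where 7.11% of all genes were separated in this direction. Pcna changed by 0.16 ± 0.08 without injection (edgeR adjusted p = 0.149), 0.31 ± 0.08 after vehicle (0.00891) and 0.27 ± 0.09 after nanoceria (0.0344). The call after vehicle was lost in 3 of 26 alternatives (the compared groups alone, and without the libraries numbered 2 or 4, with an adjusted p of 0.0759 to 0.136). That after nanoceria was lost in 15 of 25 (adjusted p of 0.0529 to 0.138 in edgeR or DESeq2), among them without any 1 of the 4 nanoceria libraries or nanoceria + light damage 3, 4 or 5. Rrm2, the regulated subunit of ribonucleotide reductase, ranged from 1.298 to 8.09 CPM in control alone, and its changes with light were -0.60 ± 0.33, 0.20 ± 0.36 and 0.05 ± 0.38.

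**Figure D2:**
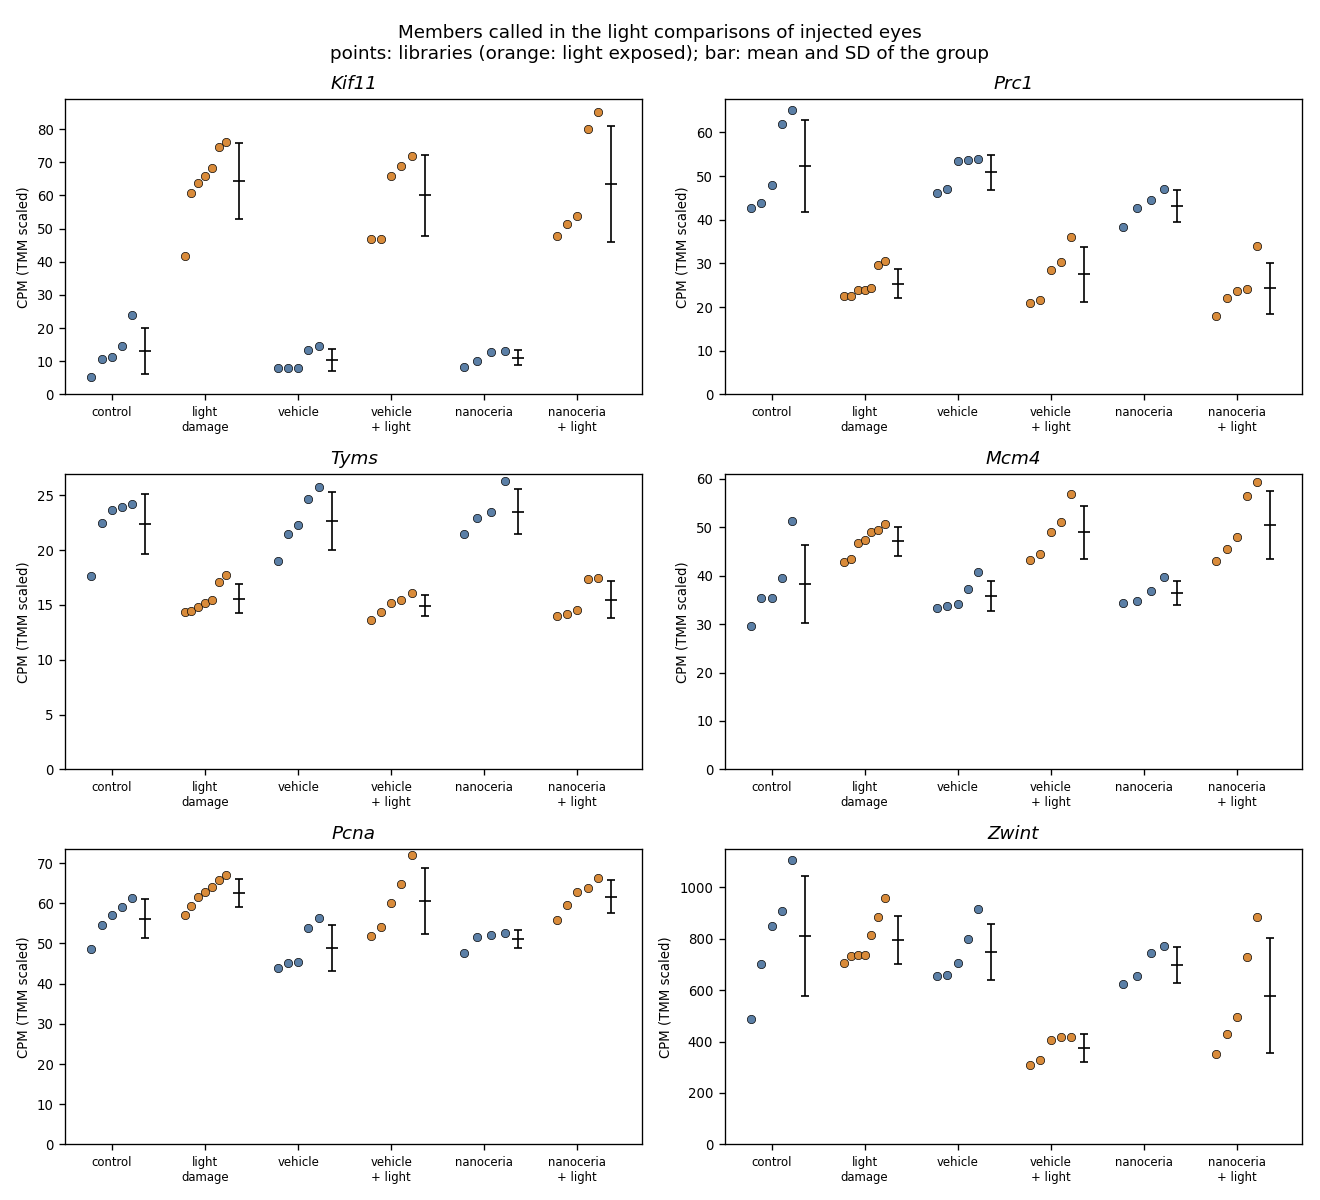
CPM (linear axis from 0) of Kif11, Prc1, Tyms, Mcm4, Pcna and Zwint in each of the 31 libraries by group, light groups in orange, with the mean and SD of the group beside the points. Kif11 stands at 41.7 CPM or more in all light libraries and at 24.0 or less in all others, and the Prc1 points of the light groups lie below those of the matching groups without light.

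Of the 7 measured mitotic kinases, cyclins and their transcription factor, Aurka and Aurkb fell without injection, none was called after vehicle or after nanoceria, and the medians of the 3 comparisons were -0.61, 0.15 and 0.03. Cdk1 is the kinase that starts mitosis with its cyclins. Cdk1 read 4.24, 7.90, 8.38, 10.3 and 16.6 CPM in control, 3.98, 4.86, 4.97, 7.44 and 9.22 in vehicle and 3.75, 4.86, 5.46 and 7.29 in nanoceria. In vehicle + light damage Cdk1 was 4.70, 5.12, 5.66, 6.85 and 9.13 CPM, in nanoceria + light damage 2.47, 5.33, 6.31, 6.60 and 7.85, and in light damage 4.77, 5.48 and 7.41 (lowest, median and highest). The control group spanned the whole range of the light damage group and more, and the change of -0.72 ± 0.27 did not pass (edgeR adjusted p = 0.0539). After vehicle and after nanoceria it was 0.05 ± 0.29 and 0.10 ± 0.31.

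Aurora kinase A matures the spindle poles. Aurka read 4.17, 4.74, 5.22, 6.22 and 6.65 CPM in control, 3.76, 3.97, 4.25, 4.68 and 5.24 in vehicle and 3.33, 4.33, 4.45 and 4.97 in nanoceria. Light-exposed retinas had 4.08, 4.10, 4.20, 4.49 and 4.60 CPM of Aurka after vehicle, 3.23, 3.58, 4.07, 4.07 and 4.28 after nanoceria, and a lowest, median and highest of 3.55, 3.94 and 4.31 without injection. Its lowest control library lay inside the range of light damage and the other 4 lay above it. Aurka fell by 0.45 ± 0.11 on the log2 scale without injection (edgeR adjusted p = 0.00311), a call kept in all alternatives, and changed by -0.03 ± 0.12 after vehicle and -0.15 ± 0.13 after nanoceria. Aurora kinase B corrects the attachment of chromosomes. Aurkb read 2.63, 5.11, 6.61, 7.19 and 13.8 CPM in control, 2.69, 2.98, 2.997, 5.31 and 7.38 in vehicle and 2.49, 3.76, 3.86 and 5.46 in nanoceria. With light it read 3.78, 4.11, 4.47, 6.89 and 7.90 CPM in vehicle + light damage and 1.44, 3.70, 5.23, 5.27 and 6.60 in nanoceria + light damage, and in light damage its lowest, median and highest values were 2.12, 3.66 and 4.44. Aurkb fell by 0.99 ± 0.34 without injection (edgeR adjusted p = 0.0371) and was 0.35 ± 0.37 and 0.19 ± 0.40 after vehicle and nanoceria, which did not pass. Control 6 was the highest library of all, at 13.8 CPM. The call of Aurkb was lost in 14 of 29 alternatives (adjusted p of 0.0501 to 0.246 in edgeR or limma-voom). Among them were limma-voom, scaling by library size alone, and leaving out control 4, 5 or 6 or light damage 1, 2, 3 or 6. Ccna2, Ccnb1, Plk1 and Foxm1, which are the S and M phase cyclins, a mitotic kinase and a factor that transcribes mitotic genes, had changes of -0.71 to -0.16 without injection and of -0.09 to 0.24 after an injection, with no call.

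In the checkpoint, kinetochore and anaphase promoting complex group, Bub1b and Cdc20 fell without injection and Zwint fell after vehicle. Bub1b, a checkpoint protein that holds back anaphase, had low values. Bub1b read 2.07, 4.38, 4.93, 6.06 and 10.5 CPM in control, 2.72, 2.79, 2.83, 4.80 and 5.80 in vehicle and 3.14, 3.30, 4.08 and 5.37 in nanoceria. The light damage libraries had a lowest, median and highest Bub1b of 2.27, 3.03 and 4.27 CPM, those of vehicle + light damage read 2.76, 3.18, 3.35, 4.85 and 5.30, and those of nanoceria + light damage 1.67, 3.44, 3.65, 3.94 and 4.79. Bub1b fell by 0.80 ± 0.29 on the log2 scale (edgeR adjusted p = 0.0484). The call was lost in 23 of 29 alternatives (adjusted p of 0.0533 to 0.344 in edgeR or limma-voom), among them without control 4, 5 or 6 or any light damage library but number 5. Cdc20 activates the anaphase promoting complex. Cdc20 read 7.43, 12.02, 15.4, 15.8 and 24.2 CPM in control, 7.87, 8.42, 8.501, 11.96 and 14.6 in vehicle and 7.53, 10.001, 10.8 and 12.98 in nanoceria. In vehicle + light damage Cdc20 was 7.58, 7.60, 8.30, 12.1 and 12.5 CPM, in nanoceria + light damage 5.38, 8.67, 10.1, 10.3 and 10.8, and in light damage 6.95, 8.84 and 11.5 (lowest, median and highest). Control 1, at 7.43 CPM, lay within the light damage group, whereas the other 4 controls were at 12.0 CPM or more, above the highest light damage library. Cdc20 fell by 0.71 ± 0.22 without injection (edgeR adjusted p = 0.0209), which was lost without control 6 or without the libraries numbered 4 or 6, and its changes were -0.09 ± 0.24 after vehicle and -0.19 ± 0.26 after nanoceria. Bub1, Ube2c, Cenpe and Cenpf were not called in any comparison, with changes of -0.74 to -0.35 without injection.

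Zwint, a kinetochore protein in dividing cells, was called in the vehicle groups. Over libraries it did not rise with Mki67. Its Pearson r with Mki67 was -0.729 without light (-0.167 without control 1 and control 6) and -0.25 with light. Zwint read 488, 702, 849, 906 and 1107 CPM in control, 657, 660.1, 705, 799 and 914 in vehicle and 622, 654, 744 and 772 in nanoceria. Light-exposed retinas had 307, 327, 405, 416 and 418 CPM of Zwint after vehicle, 351, 430.4, 494, 729.6 and 886 after nanoceria, and a lowest, median and highest of 706, 737 and 958 without injection. All 5 vehicle + light damage libraries lay below all vehicle and all light damage libraries. The nanoceria + light damage libraries were split, with 3 at 494 CPM or less and 2 at 730 CPM or more. Zwint fell by 1.00 ± 0.20 on the log2 scale for vehicle + light damage against vehicle (edgeR adjusted p = 5.86e-04) and was -0.03 ± 0.18 for light damage against control (0.944) and -0.27 ± 0.21 for nanoceria + light damage against nanoceria (0.45). Between light groups, vehicle + light damage was lower than light damage by -1.09 ± 0.19 (edgeR adjusted p = 0.0093), the 1 member called in that comparison, where 0.122% of all genes were called (0.0608% lower). CPM ranges that did not overlap in this direction were found in 0.486% of all genes, and in 6.01% for vehicle + light damage against vehicle. That call was lost without the libraries numbered 4 (edgeR adjusted p = 0.0698). Nanoceria + light damage differed from vehicle + light damage by 0.63 ± 0.20, which did not pass (edgeR adjusted p = 1), and the test of the difference between the light response after vehicle and without injection gave -0.97 ± 0.27 (0.347).

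The spindle and cytokinesis group held the largest rise and the largest fall of the list in each light comparison, apart from Zwint after vehicle. Kif11 read 5.28, 10.6, 11.1, 14.6 and 23.96 CPM in control, 7.99, 8.05, 8.09, 13.3 and 14.5 in vehicle and 8.33, 10.1, 12.9 and 12.996 in nanoceria. With light it read 46.8, 46.9, 65.9, 68.8 and 71.9 CPM in vehicle + light damage and 47.6, 51.5, 53.7, 79.98 and 85.01 in nanoceria + light damage, and in light damage its lowest, median and highest values were 41.7, 65.8 and 76.1. Every light library stood above every library without light. Kif11 rose by 2.30 ± 0.27 without injection, 2.53 ± 0.28 after vehicle and 2.52 ± 0.31 after nanoceria (edgeR adjusted p = 3.54e-07, 2.43e-07 and 1.77e-06), and the difference between the responses after nanoceria and after vehicle was -0.01 ± 0.39. Leaving out any library, or changing the scaling or the tool, gave values between 2.07 and 2.78 for these 3 and kept every call. CPM ranges that did not overlap in this direction were found in 6.47%, 7.65% and 7.11% of all genes in the 3 comparisons. Kif11 overlaps the insulin degrading enzyme gene Ide in the RefSeq annotation of GRCr8, and Ide rose by 0.51 ± 0.07, 0.49 ± 0.08 and 0.57 ± 0.09. Reads from overlapping genes cannot be told apart where counting ignores strand, and the strand setting was not stated. Hhex, the neighbour on the other side, was not called.

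Prc1 moved against Kif11. Prc1 read 42.8, 43.9, 47.9, 61.996 and 65.2 CPM in control, 46.1, 47.05, 53.5, 53.6 and 53.8 in vehicle and 38.3, 42.7, 44.5 and 47.1 in nanoceria. The light damage libraries had a lowest, median and highest Prc1 of 22.4, 23.9 and 30.6 CPM, those of vehicle + light damage read 21.02, 21.7, 28.6, 30.3 and 36.1, and those of nanoceria + light damage 17.8, 22.02, 23.6, 24.04 and 33.9. In each of the 3 states the highest light library was below the lowest library without light, as in 4.79%, 6.01% and 5.54% of all genes in the 3 comparisons. Prc1 fell by 1.05 ± 0.14 without injection, 0.88 ± 0.15 after vehicle and 0.83 ± 0.16 after nanoceria on the log2 scale (edgeR adjusted p = 2.27e-06, 1.19e-04 and 5.94e-04), and every alternative kept these calls. Its neighbours Vps33b and Rccd1 were not called. Among the libraries with no light, the highest Prc1 value in control was 1.53 times the lowest, where the same ratio was 9.03 for Mki67 and 7.00 for Top2a.

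Mki67, whose protein coats chromosomes and is made in all active phases of the cycle, is the usual marker of dividing cells. Mki67 read 5.996, 18.5, 18.99, 23.1 and 54.1 CPM in control, 9.07, 11.4, 11.97, 18.7 and 21.3 in vehicle and 10.3, 13.2, 16.5 and 23.5 in nanoceria. In vehicle + light damage Mki67 was 13.8, 14.2, 14.98, 20.6 and 23.2 CPM, in nanoceria + light damage 5.96, 14.1, 15.5, 18.7 and 20.4, and in light damage 8.71, 14.5 and 18.1 (lowest, median and highest). Nanoceria + light damage 2, the lowest library of its group for 31 of the 36 members (27.6% of all genes), was the lowest of all, and without it the same 5 members were called after nanoceria. The light groups lay within the range of the control group, from 6.00 to 54.1 CPM, apart from 1 library at 5.96 CPM. Mki67 changed by -0.79 ± 0.34 without injection, 0.26 ± 0.38 after vehicle and -0.09 ± 0.40 after nanoceria, and none passed (edgeR adjusted p = 0.106, 0.722 and 0.922). Top2a, the topoisomerase that untangles sister chromosomes, had a like spread. Top2a read 9.13, 23.8, 25.8, 30.9 and 63.9 CPM in control, 13.8, 14.6, 14.7, 24.2 and 29.5 in vehicle and 12.4, 17.7, 18.6 and 27.8 in nanoceria. Light-exposed retinas had 17.3, 17.5, 19.5, 28.5 and 32.3 CPM of Top2a after vehicle, 8.58, 19.6, 19.7, 23.9 and 24.6 after nanoceria, and a lowest, median and highest of 12.1, 18.5 and 25.8 without injection. Its changes were -0.76 ± 0.32, 0.25 ± 0.35 and 0.01 ± 0.37 (edgeR adjusted p = 0.0871, 0.71 and 0.99). Nusap1, which stabilises microtubules at the spindle, was called without injection. Nusap1 read 4.50, 8.05, 9.22, 11.5 and 19.6 CPM in control, 4.60, 5.38, 5.69, 7.12 and 10.3 in vehicle and 4.31, 5.12, 6.17 and 8.55 in nanoceria. With light it read 5.29, 5.56, 7.54, 8.70 and 9.21 CPM in vehicle + light damage and 2.34, 5.59, 6.22, 7.29 and 8.51 in nanoceria + light damage, and in light damage its lowest, median and highest values were 4.56, 5.73 and 9.06. Nusap1 fell by 0.85 ± 0.29 on the log2 scale (edgeR adjusted p = 0.0334), with overlapping groups, and the call was lost in 16 of 29 alternatives (0.0515 to 0.249), among them without control 5 or 6 or light damage 1, 2, 3, 6 or 7. Kif23, Tpx2 and Birc5 changed by -0.62 to -0.55 without injection, with no call.

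**Figure D3:**
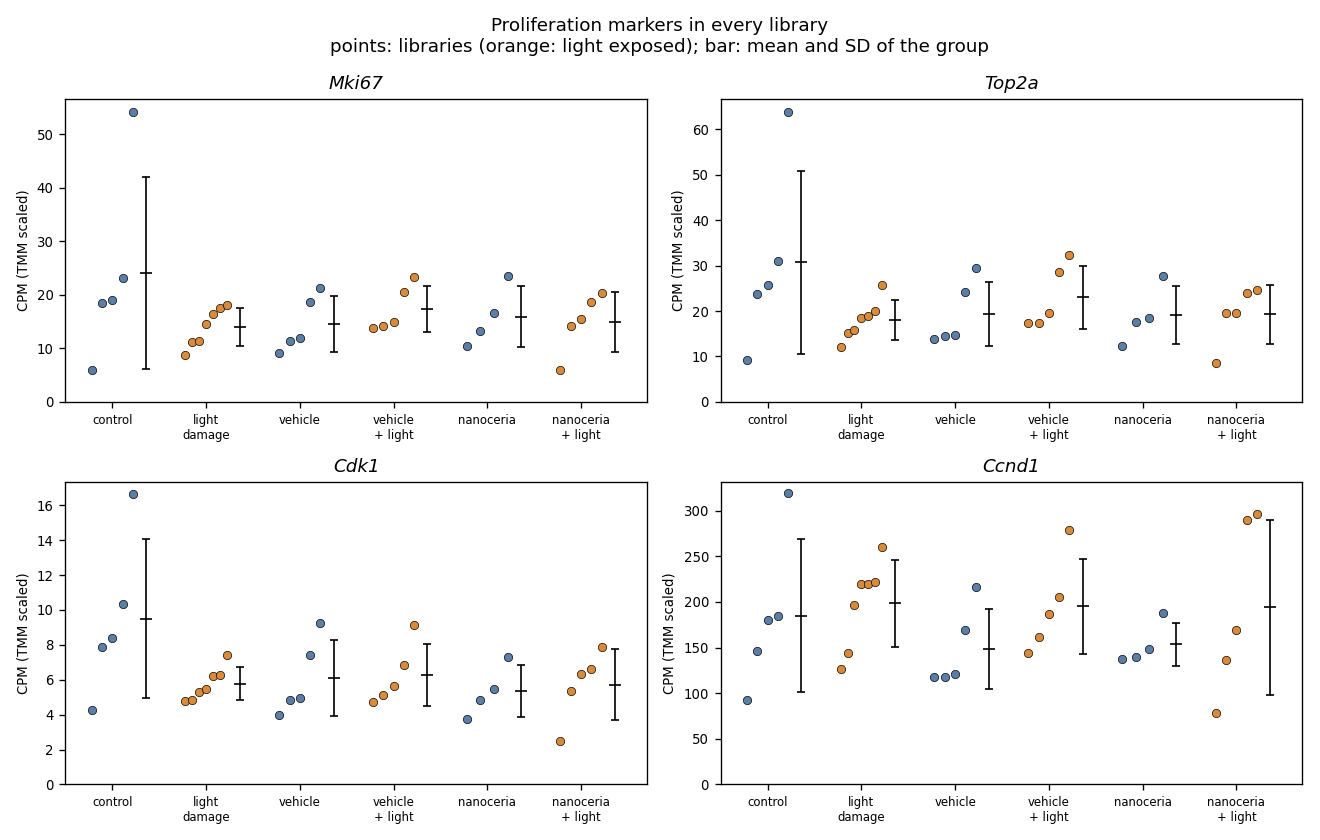
CPM (linear axis from 0) of Mki67, Top2a, Cdk1 and Ccnd1 in each of the 31 libraries by group, light groups in orange, with the mean and SD beside the points. The control group has the widest range in all 4 panels, with control 6 at its top (54.1 CPM for Mki67) and control 1 at its bottom (6.00 CPM), and the other groups lie between or near them.

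The number of members called without injection ranged from 5 to 19 when 1 library was left out. Control 6, the highest control for 33 of the 36 members, and control 1, the lowest for 31, held those places for 30.9% and 31% of all genes. Without control 6, 5 members were called for light damage against control (Mcm4, Tyms, Aurka, Kif11 and Prc1) and the median was -0.21. Without control 1, 19 were called, 18 of them lower, and the median was -0.70. Without both, 6 were called and the median was -0.40. Over all genes the medians without control 6, without control 1 and without both were 0.02, -0.01 and 0.01. The share of all genes called in these refits was not computed. Leaving out light damage 3 also gave 5 called members (Tyms, Aurka, Cdc20, Kif11 and Prc1), and leaving out any of the other libraries gave 6 to 10. In the marker sums, control 6 had the highest astrocyte sum of the controls (877 CPM), and control 1 an astrocyte sum of 514. Control 6 and control 1 had lens sums of 1664 and 2783 CPM, neither of them the lowest or the highest control. Their endothelial sums of 353 and 500 CPM and cone sums of 92.9 and 152 were the lowest and the highest of the controls. The part of these cell types in the result was not tested.

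Most members varied with Mki67 from library to library in retinas without light. Over 13 such samples, with the near-identical pair averaged, 28 of the other 35 members had a Pearson correlation with Mki67 above 0.8 on the log2 CPM scale, with a median of 0.937. That was 80% of the members, against 9.4% of the 17246 other genes with a count above 0 in every library. With control 1 and control 6 left out, 26 did (5.1% of all genes). Over the 16 light samples 17 did (5.45% of all genes), with a median of 0.799, and 12 did without light damage 2 and nanoceria + light damage 2 (1.61%). The samples share their group's treatment, and depth and tissue make-up were not held fixed. Of the 70 relations tested, 29 of 35 without light and 27 of 35 with light had a Benjamini-Hochberg adjusted permutation p under 0.05. Top2a was the closest, at r = 0.987 (Spearman 0.956) without light and 0.98 (0.947) with light, each with an adjusted permutation p of 2.33e-05 for r, from the smallest p that 100000 permutations can give (1e-05). Leaving out the 2 samples farthest from the median of Mki67 gave 0.966 and 0.952.

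Kif11 followed Mki67 without light (r = 0.97, Spearman 0.885, adjusted permutation p = 2.33e-05 and 3.75e-04; 0.91 without the 2 farthest samples). With light, r was 0.106 and the Spearman coefficient -0.112 (adjusted permutation p = 0.754 and 0.745; r = -0.496 without the 2 farthest), so the relation did not pass there. The difference between the correlations was not tested. Tyms had r = -0.0774 without light and -0.724 with light (Spearman -0.7; adjusted permutation p = 0.00153 and 0.00612; r = -0.535 without the 2 farthest). Prc1 had 0.563 and 0.141 (adjusted permutation p = 0.0574 and 0.67). Zwint ran against Mki67 without light at r = -0.729 (Spearman -0.56, adjusted permutation p = 0.00769 and 0.0621), which rested on control 1 and control 6, since r was -0.167 without them.

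**Figure D4:**
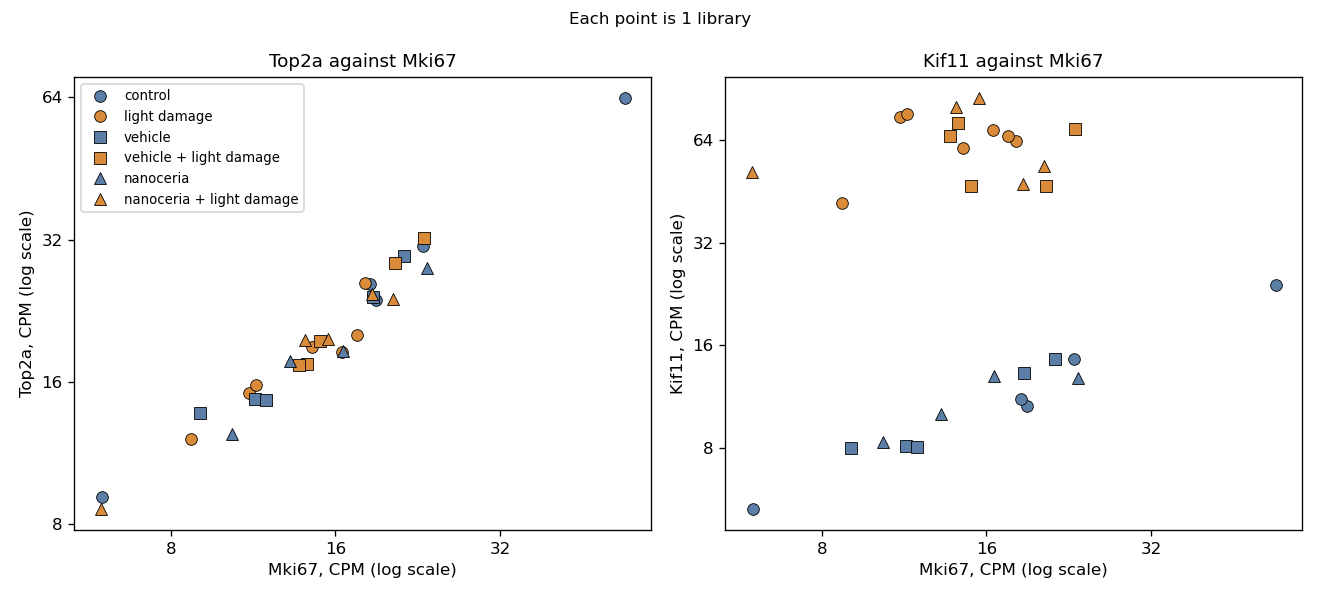
CPM of Top2a (left) and Kif11 (right) against CPM of Mki67, both axes on a log scale, 1 point per library, with the shape giving the injection and orange the light. Top2a lies on 1 band for all libraries, whereas Kif11 forms a rising band without light and a separate cloud at 41.7 CPM or more with light.

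No member was called higher after either injection. For vehicle against control no member was called by edgeR or by DESeq2, 14 had an unadjusted p under 0.05 in edgeR (8.08% of all genes did), and edgeR called 0.0221% of all genes. Limma-voom called 17 members, all lower, where it called 6.58% of all genes lower. The median was -0.52, against -0.03 over all genes, and it was -0.19 without control 6 and -0.72 without control 1. For nanoceria against control the median was -0.48, with Cdt1 the 1 call. Without control 6 it was -0.13. These comparisons and that of light damage with control share the control libraries. Lens markers (8 genes) summed to 595 to 7240 CPM in control, 4368 to 27307 in vehicle and 665 to 10949 in nanoceria. For vehicle against control none of the 8 was called, 7 had an unadjusted p under 0.05 and the median was 2.35. Microglial markers summed to 215 to 329 CPM in nanoceria, 148 to 258 in vehicle and 133 to 165 in control, with 6 of 7 genes called higher for nanoceria against control and none for vehicle. T cell markers summed to 3.296 to 8.29 CPM in nanoceria, 1.92 to 4.45 in vehicle and 1.59 to 2.41 in control, with 3 of 5 genes and 0 of 5 called higher. The part of these cells in the result was not tested.

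No difference between nanoceria and vehicle in these genes passed the test. For nanoceria against vehicle edgeR, DESeq2 and limma-voom called no member, none had an unadjusted p under 0.05 in edgeR (5.64% of all genes did), and edgeR called 0% of all genes. For nanoceria + light damage against vehicle + light damage no member was called by the 3 tools and 1 (Zwint) had an unadjusted p under 0.05 (1.42% of all genes), with 0% of all genes called. Nanoceria + light damage against light damage gave 0 members by the 3 tools and 1 with an unadjusted p under 0.05 (6.76% of all genes), with 0.0608% of all genes called. The light response after nanoceria did not differ from that after vehicle for any member in the 3 tools, and 1 had an unadjusted p under 0.05 (2.29% of all genes; 0% called). The test of the light response after vehicle against that without injection called 0 members in the 3 tools and 9 had an unadjusted p under 0.05 (5.85% of all genes), with a median difference of 0.52 and 0.0442% of all genes called. A light effect on mitotic members that is particular to uninjected eyes was therefore not shown. For Mki67 the difference between nanoceria + light damage and vehicle + light damage was -0.22 ± 0.38.

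Of 94 other listed genes of the cell cycle, 92 were measured. For light damage against control 9 rose (9.78%, against 11.9% of all genes) and 29 fell (31.5%, against 10.6%). For vehicle + light damage against vehicle 10 rose (10.9%, against 9.67%) and 6 fell (6.52%, against 7.17%), and for nanoceria + light damage against nanoceria 8 rose (8.7%, against 8.15%) and 6 fell (6.52%, against 5.78%). None was called for vehicle or nanoceria against control by edgeR. Of 13 inhibitors of the cycle and growth arrest genes, 6 rose and 1 fell without injection, 4 rose after vehicle and 5 after nanoceria. The shares that rose were 46.2%, 30.8% and 38.5%, against 11.9%, 9.67% and 8.15% of all genes. Gadd45g, a stress-induced growth arrest protein, rose by 2.39 ± 0.18, 1.83 ± 0.19 and 2.39 ± 0.21, and Gadd45b, its relative, by 1.47 ± 0.20, 1.32 ± 0.21 and 1.24 ± 0.22. The CDK inhibitor Cdkn1b rose by 0.30 ± 0.05, 0.48 ± 0.06 and 0.45 ± 0.06, while Cdkn2c, an inhibitor of CDK4 and CDK6, fell by 0.41 ± 0.13 on the log2 scale without injection. Cdkn1a, the p53 target p21, which is named after its values were seen, was 0.33 ± 0.21, 0.48 ± 0.23 and 0.69 ± 0.24, which did not pass in any of the 3, and rose by 0.50 ± 0.13 when averaged over them (edgeR adjusted p = 0.00327).

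Of 11 other G1 genes 2 rose and 1 fell without injection, 2 rose and 1 fell after vehicle, and 1 rose and 1 fell after nanoceria. The shares that rose were 18.2%, 18.2% and 9.09%, against 11.9%, 9.67% and 8.15% of all genes. The share that fell was 9.09% each time, against 10.6%, 7.17% and 5.78%. Myc, a growth promoting factor, rose by 1.38 ± 0.30, 1.72 ± 0.32 and 1.42 ± 0.34 without injection, after vehicle and after nanoceria. Rbl2, a pocket protein that represses E2F targets in resting cells, fell by 0.25 ± 0.04, 0.23 ± 0.04 and 0.25 ± 0.04 on the log2 scale. Of 11 E2F and MYB factors 1 rose (9.09%) and 3 fell (27.3%) without injection. After vehicle, and likewise after nanoceria, 2 rose (18.2%) and 1 fell (9.09%), against the same shares of all genes. E2f5, a repressive E2F, rose by 0.54 ± 0.10, 0.44 ± 0.11 and 0.53 ± 0.12. Mybl2, which activates mitotic genes, changed by -0.90 ± 0.32 and E2f1, an activating E2F, by -0.42 ± 0.12 without injection. Of 21 other replication genes 10 fell and none rose without injection, 3 fell and 1 rose after vehicle, and 3 fell after nanoceria. The shares that fell were 47.6%, 14.3% and 14.3%, against 10.6%, 7.17% and 5.78% of all genes. Thymidine kinase Tk1 changed by -0.70 ± 0.19 and Gins1, a helicase cofactor, by -0.65 ± 0.21 without injection. Dut, which removes dUTP, fell by 0.36 ± 0.11, 0.55 ± 0.12 and 0.39 ± 0.12 on the log2 scale, and Rrm1, the large subunit of ribonucleotide reductase, by 0.38 ± 0.06, 0.24 ± 0.06 and 0.27 ± 0.07. Pola1, the polymerase that primes new strands, rose by 0.40 ± 0.10 after vehicle.

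Of 36 other mitotic genes 14 fell without injection, 1 fell and 1 rose after vehicle, and 1 fell after nanoceria. The shares that fell were 38.9%, 2.78% and 2.78%, against the same 10.6%, 7.17% and 5.78% of all genes. Anln, a scaffold of the cleavage furrow, changed by -1.15 ± 0.33 and Ttk, a checkpoint kinase, by -1.06 ± 0.22 without injection. After vehicle Ccnf, an F-box cyclin, fell by 0.90 ± 0.18 on the log2 scale and Wee1, a kinase that holds back Cdk1, rose by 0.47 ± 0.13. After nanoceria Ncaph, a condensin subunit, fell by 1.68 ± 0.32. These groups include the control libraries described above, which stood apart for the members.

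Markers of cell types that are able to divide were read beside the members. Monocyte and macrophage markers (6 genes, summed) were 124 to 207 CPM in control and 180 to 510 in light damage, with 5 of 6 genes called higher, while no mitotic kinase member rose. Microglial markers (7 genes) were 133 to 165 CPM in control and 122 to 199 in light damage, with 1 gene higher and 2 lower. T cell markers (5 genes) summed to 1.59 to 2.41 CPM in control and 1.74 to 6.55 in light damage, with 3 genes called higher. Neutrophil markers (5 genes) summed to 0.998 to 1.97 CPM in control and 1.43 to 8.53 in light damage. Of the 3 that passed the filter 1 was called higher, with a median of 1.74, while the granule genes Elane and Mpo had no count in 21 and 2 of the 31 libraries. Of the 6 monocyte and macrophage genes, 4 were called higher with light after vehicle and 2 after nanoceria, with 0 lower in both. After vehicle no microglial or T cell gene was called with light, and 1 neutrophil gene was higher. After nanoceria all 7 microglial genes had negative changes with 3 called lower (127 to 252 CPM with light, 215 to 329 without), and no T cell or neutrophil gene was called. Mueller glia markers (7 genes) summed to 4744 to 6645 CPM in control and 3639 to 4121 in light damage. Of these genes 1 was called higher and 2 lower without injection, with changes from -1.17 to 1.96. With light after vehicle, and likewise after nanoceria, 2 Mueller glia genes were called higher and 1 lower. Astrocyte markers (4 genes) summed to 478 to 877 CPM in control and 503 to 810 in light damage, with 1 gene called higher, at 1.99, and 0 lower. Endothelial markers (4 genes) summed to 353 to 500 and 258 to 340 CPM, with 0 genes called higher and 1 lower. Their part in the result was not tested. The scaling by library size alone moved the median of all genes for vehicle + light damage against vehicle to 0.115 and the share of higher genes among all those called from 57.4% to 78%. For light damage against control that share went from 52.7% to 68.3%, and for nanoceria + light damage against nanoceria from 58.5% to 68.8%, or to 46.1% with DESeq2 size factors.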

How the data were processed

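PolyA RNA of rat retina was sequenced, and the authors deposited raw counts per gene. Per the submitters' processing notes, the tools were Trimmomatic 0.39, STAR 2.7.9a, featureCounts of Subread 2.0.1, and DESeq2 1.30.1 run in R 4.0. The genome build was rn6. The annotation release, the strand setting and the treatment of multiply mapped reads were not given in those sources. Samples were grouped by the treatment in the labels. Members were matched by symbol. Counts were tested with edgeR 4.0.16 in R 4.3.3 (robust quasi-likelihood test, TMM scaling, filterByExpr at 10 counts per library and 15 in total, 1 coefficient per group, 31 libraries) and p-values adjusted by the Benjamini-Hochberg method over 18094 genes. The alternatives were other scalings, no filter, the compared groups alone, DESeq2 1.42.0, limma-voom of limma 3.58.1, a replicate block, a term for sex, near-identical pairs summed, and each replicate left out. Fits were tested on simulated data. The replicate numbers in the labels were not taken to pair the samples. Correlations used log2 CPM with no prior count and 100000 permutations. P-values measure the spread between these libraries, which the labels call biological replicates. 1 marker list is not reported here. The members and lists were chosen with earlier results of these data known. Members called in any comparison, and Mki67, Top2a, Cdk1, Ccnd1 and Pcna, are described in full, the others by range. In the other lists, the named genes are those with the highest and lowest changes among called genes.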

Additional observations from a re-analysis of the deposited data

Results flagged for a closer look

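A library that stood apart from the others of its group (by Dixon's test on log2 CPM) was found in 10 of 216 groups of values, or 4.63%, where chance gives about 1 in 20. In 6 of the 10 it was nanoceria + light damage 2, which was low for Ccna2 (3.21 CPM, others 5.76 to 7.15), Ccnb1 (3.50, others 6.35 to 7.63), Plk1 (2.13, others 5.89 to 6.68), Bub1 (2.78, others 5.79 to 7.52), Top2a (8.58, others 19.6 to 24.6) and Kif23 (3.26, others 11.6 to 16.1). This library was the lowest of its group for 31 of 36 members, against 27.6% of all genes. Light damage 2 was low for Mcm3 (6.54 CPM, others 9.44 to 11.5) and for Kif11 (41.7, others 60.7 to 76.1). Control 4 was low for Tyms (17.7 CPM, others 22.5 to 24.2), and light damage 5 was high for Nusap1 (9.06 CPM, others 4.56 to 6.11).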

How the results depend on the processing

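No called member changed its direction. The median over the 36 members for nanoceria + light damage against nanoceria turned from 0.03 (20 positive) to -0.01 (17 positive) with DESeq2 size factors. For light damage against control, 9 members were called and 4 to 19 with a replicate left out: 19 without control 1, 18 without the libraries numbered 1, 5 without control 6, light damage 3 or the libraries numbered 3, and 4 without those numbered 4. The counts were 6 to 12 in the other settings. The ranges with a replicate left out were 4 to 6 for vehicle + light damage against vehicle (6), 3 to 5 for nanoceria + light damage against nanoceria (5; 3 without the libraries numbered 5), 6 to 9 for the averaged effect (7), and 0 to 1 for nanoceria against control and for vehicle + light damage against light damage (1 each). For nanoceria against control DESeq2 called 2 and limma-voom 3, and for vehicle against control limma-voom called 17 where the other settings called 0. The share of all genes called with a replicate left out was not computed, and the causes were not tested. The smallest count of a member was 27, and what depth alone limits was not tested.

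The replicate number as a block gave 6 members for light damage against control, 6 for vehicle + light damage against vehicle, 4 for nanoceria + light damage against nanoceria, 8 for the averaged effect, and the main counts of 1 or 0 elsewhere; under it Mcm4, Bub1b and Nusap1 were not called for light damage against control, nor Pcna after nanoceria. Same-numbered libraries deviated together in 20 of 60 pairs (correlation above 0.1). The same share was not computed for libraries of different numbers, so this count cannot decide whether the numbers pair the samples. The main fit did not take them as pairs, and the block is given as an alternative. Number 2 had the highest share, with 8 of 15 pairs and a median correlation of 0.182. Number 2 was the lowest of its group for 26 of 36 members in vehicle (23.6% of all genes) and 26 in nanoceria (30.2%). The counts were 31 in nanoceria + light damage (27.6%) and 17 in light damage (20.9%). In control number 2 was the lowest for 1 member (11.6%). In vehicle + light damage it was the lowest for 13 (15.1%), where number 3 was the lowest for 15 (19.5%). Libraries are numbered in the deposited header by replicate number, and whether a number marks a shared batch was not stated.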
